A study of Sus scrofa with 8 samples.

Results

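Keratin-rich HAND+ cells without EPCAM were barcodes that carried many keratin 8 transcripts and at least 1 transcript of a HAND gene, but none of EPCAM or GATA4. They were taken from barcodes with at least 200 genes, at most 30000 UMIs (unique molecular identifiers, each standing for 1 captured transcript) and at most 10% of UMIs on the 13 mitochondrial genes. Of these, a member had KRT8 at 10 or more UMIs, HAND1 or HAND2 at 1 or more, and EPCAM and GATA4 at 0. The rule gave 4478 members among 82394 kept barcodes, from 90688 barcodes deposited. The members were thus chosen by their measured values of these genes, and their difference from other cells is given below as a description without a test.

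The study profiled embryonic pig tissue with droplet single-cell RNA sequencing at embryonic day (E) 16, 18, 21 and 28, in Tibetan pigs (ZZ) and Duroc x Tibetan crosses (DZ). Somites were taken at E16, E18 and E21, and myotomes at E28. Each of the 8 groups was 1 library, named here by stage and breed (E16-ZZ), made from 5 pooled embryos of 1 sow, so litter and group cannot be told apart. The E28 libraries differ from the rest in tissue as well as stage, and the E16 libraries in the version of Cell Ranger as well as stage, and these cannot be told apart either.

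Keratin 8 and keratin 18 pair to form the intermediate filaments of simple epithelia, the single-layered sheets that line surfaces and cavities of the embryo, and are also made in some non-epithelial tissues. EPCAM is an adhesion molecule found on most epithelial cells. HAND1 and HAND2 are basic helix-loop-helix transcription factors of the lateral plate mesoderm, heart, limb and extraembryonic mesoderm, and GATA4 is a zinc finger factor of heart, gut and lateral mesoderm. On Sscrofa11.1, KRT8 lies on chromosome 5 at 18172423 to 18180277 and KRT18 close by at 18217686 to 18221432. HAND1 lies on chromosome 16 at 68679977 to 68683346 and HAND2 on chromosome 14 at 16460089 to 16462979.

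The members were common at the early stages and almost absent later. E16-ZZ held 1258 members, 19.98% of its kept barcodes (exact 95% binomial interval 18.996 to 20.99%), and E16-DZ held 1544, or 14.6% (13.9 to 15.2%). E18-ZZ held 917, or 8.90% (8.36 to 9.47%), and E18-DZ held 722, or 6.98% (6.49 to 7.49%). At E21 there were 15 members in the ZZ library, 0.129% (0.0723 to 0.213%), and 22 in the DZ library, 0.216% (0.135 to 0.327%). At E28 there were 0 of 10869 and 0 of 12173 kept barcodes, which allows a share of up to 0.0276% and 0.0246% by the limit of 3 counts, and 0.0339% and 0.0303% by the upper end of the exact interval. Every E16 and E18 library thus lay above every E21 and E28 library. Intervals and limits cover counting error only.

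The mean share of the 4 early libraries was 12.6% ± 5.88 (SD, n = 4), and that of the 4 late ones was 0.0863% ± 0.106 (SD, n = 4). The difference, late minus early, was -12.5 percentage points (exact two-sided permutation test over the 8 libraries, p = 0.0286, the smallest this design can give). With any 1 library left out the difference was -14.4 to -10.1 points, with an exact permutation p of 0.0571, which was again the smallest possible. Without the E16 libraries it was -7.85 points.

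**Figure D1:**
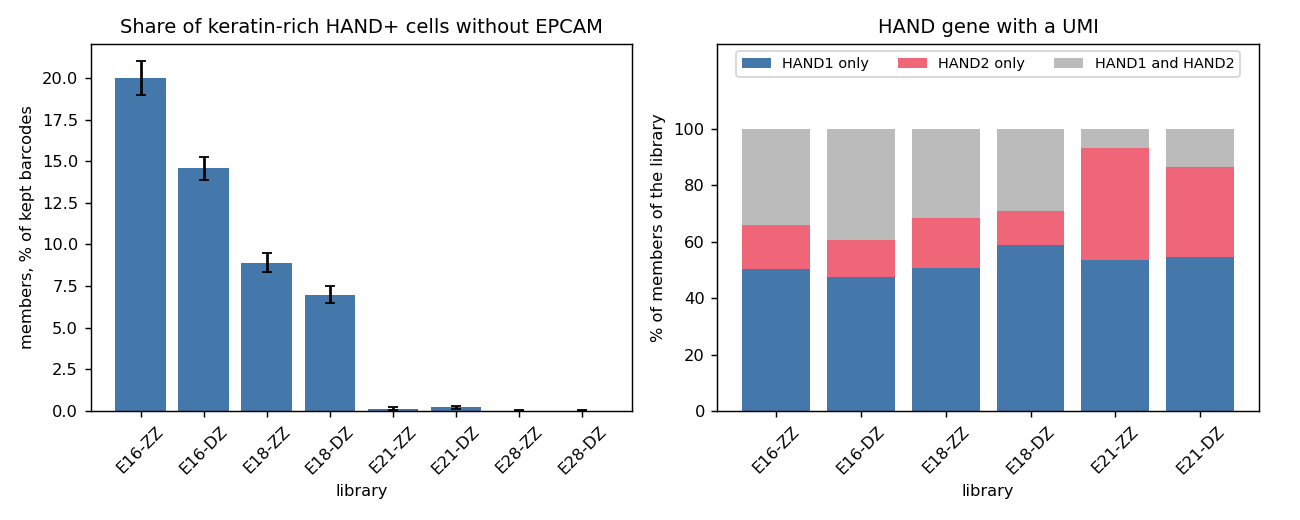
Left, members as a percentage of kept barcodes in each of the 8 libraries, with exact 95% binomial intervals as error bars; shares run from 19.98% in E16-ZZ to 0 at E28. Right, members of the 6 libraries that held any, split by whether the barcode had a UMI of HAND1 only, HAND2 only or both; HAND1 only is the largest class in each library.

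The libraries held 50110370 to 71091640 UMIs each, and the median member had 6044 to 7925 UMIs, against 4736 to 6338 for all kept barcodes at E16 and E18 and 3496 to 4654.5 at E21 and E28. With every barcode thinned to 2000 UMIs, shallower ones left out and the KRT8 limit at 4, the late minus early difference in share was -10.6 points. E16-ZZ stood apart in that 39.2% of its barcodes were removed by the mitochondrial limit, against 1.05 to 9.15% elsewhere. Between library pairs, 17 to 48 kept barcodes had the same sequence, at most 0.464% of the smaller library, and 0 to 2 of these were members in both. No doublets were removed. Barcodes with the highest scores of Scrublet, a doublet caller, were marked up to a number fixed beforehand, at a rate of 0.8% per 1000 kept barcodes. This marked 396 of the members. The marked share was 6.60, 11.3, 8.07 and 8.59% of members in E16-ZZ, E16-DZ, E18-ZZ and E18-DZ, against 5.03, 8.48, 8.24 and 8.27% of all kept barcodes. Without the marked barcodes the late minus early difference in share was -12.3 points.

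HAND1 was the more widely detected HAND gene. In E16-ZZ, E16-DZ, E18-ZZ and E18-DZ, 50.2, 47.5, 50.5 and 58.9% of members had HAND1 alone, 15.7, 13.2, 17.9 and 12.1% had HAND2 alone, and 34.1, 39.4, 31.6 and 29.1% had both. After thinning each cell to 2000 UMIs, HAND1 was seen in 50.9, 57.1, 50.8 and 65.6% of members and HAND2 in 19.3, 21.9, 15.0 and 14.7%, so the order of the genes was the same at a fixed depth. In summed counts, HAND1 stood at 414, 490, 440 and 674 CPM (the standard depth-scaled unit, here the UMIs of a gene over all UMIs of a library's members, scaled to the same fixed total in every library) and HAND2 at 106, 121, 83.5 and 77.9 CPM. A single HAND UMI was all that qualified 24.9, 24.4, 27.4 and 19.5% of members.

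Free RNA in the droplets could supply such a UMI, so the same genes were read in cells with 2 or more UMIs of PAX6, a neural transcription factor, which should lack HAND genes. There HAND1 was detected in 5.70, 8.40, 2.98 and 2.75% of cells and HAND2 in 2.53, 2.80, 1.92 and 1.27%, at median depths of 6074.5, 6756, 6333.5 and 5765 UMIs. KRT8 reached 10 UMIs in 13.3, 15.7, 2.55 and 1.48% of them, and 6 of 158, 9 of 357, 5 of 470 and 2 of 472 met the whole rule. HBE1, an embryonic globin of red cells, was found in 53.3, 87.5, 99.3 and 51.5% of members and in 43.0, 87.4, 99.4 and 51.3% of PAX6 cells. After thinning to 2000 UMIs, HBE1 was found in 21.99, 47.41, 73.45 and 18.87% of members and in 17.95, 44.79, 78.23 and 17.22% of PAX6 cells. The part of free RNA in these shares was not tested.

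The keratin pair was abundant and KRT18 followed KRT8 although the rule did not use it. The median member had 53, 40, 42 and 50 UMIs of KRT8 in the 4 E16 and E18 libraries and 27, 13, 19 and 20 of KRT18, and at least 98.5% of members of each had a KRT18 UMI. Among PAX6 cells, 43.0, 57.7, 26.2 and 18.6% had a KRT18 UMI. KRT8 stood at 8917, 7015, 6425 and 8191 CPM and KRT18 at 4647, 2678, 3194 and 3685 CPM. The few E21 members were weaker, with a median of 17 and 15.5 UMIs of KRT8 and of 2 and 1 of KRT18 in the ZZ and DZ libraries. Around the threshold, among HAND+ barcodes without EPCAM and GATA4, 102 and 103 had 8 and 9 UMIs of KRT8 and 97, 86 and 80 had 10, 11 and 12, with a median KRT18 of 2 to 4 UMIs on both sides. The counts thus passed smoothly through the threshold, and in the E16 and E18 libraries 718 barcodes of that kind had 100 UMIs of KRT8 or more.

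Many epithelial junction genes were lower in the members than in cells with EPCAM. CDH1, the adhesion molecule E-cadherin, was at 1.33, 2.49, 0.613 and 0.176 CPM in the members of E16-ZZ, E16-DZ, E18-ZZ and E18-DZ. Members were set beside EPCAM+ keratin-rich cells, 2004 over all 8 libraries and 696, 1040, 152 and 69 in these 4. Those cells met the same KRT8 and GATA4 limits with EPCAM at 1 or more and HAND at any level. The ratio was that of CPM + 5 within each of these 4 libraries. In all 4, 142 of 8035 genes (1.77%) were at least 2-fold lower in members and 86 (1.07%) at least 2-fold higher. Of 18 measured epithelial junction genes, 13 were 2-fold lower and 0 higher (median log2 ratio -2.22, against -0.02 over all genes). They included CLDN7, a tight junction claudin, at 7.67, 10.9, 2.45 and 1.41 CPM against 313, 243, 180 and 166 CPM, and the protease inhibitor SPINT2 at 11.05, 21.9, 3.43 and 4.58 CPM against 281, 258, 183 and 193 CPM. Both genes were far lower in the members of each library. The EPCAM+ set was chosen by an epithelial gene, and against all other kept cells 0 of 11 junction genes were 2-fold higher or lower, as were 0 of 10 against keratin-rich cells without HAND.

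Not every epithelial gene was low. DSP, the desmosomal plaque protein that anchors keratin filaments, stood at 201, 249, 290 and 336 CPM in members against 101.2, 178, 170 and 242 CPM in the EPCAM+ set. KRT18 had a median log2 ratio of 0.06 to the EPCAM+ set, while KRT8, which both rules use, had 0.46. A gene named KRT14 in the files was at 1265, 990, 827 and 1041 CPM, but its identifier found no match in RefSeq, KRT5, its usual partner, was at 0 to 0.277 CPM, and its identity among the type I keratins is uncertain.

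Of 12 measured surface ectoderm and amnion genes, 9 were 2-fold lower and 0 higher than in the EPCAM+ set, among them TFAP2A at 1.12, 1.76, 0.979 and 1.76 CPM and GABRP at 12.2, 15.6, 10.4 and 5.11 CPM. Against all other kept cells 1 of 8 genes of this list was lower and 0 higher, while against HAND+ cells with little KRT8 GABRP and KRT7 were 2-fold higher of 9 measured and 0 lower. Of 9 endoderm genes, 5 were lower and 0 higher, with FOXA2, a factor of endoderm and floor plate, at 0 to 1.48 CPM, while against all other kept cells 0 of 5 were lower or higher. Of the trophoblast list, 5 genes were measured in this comparison, with 1 lower (TFAP2A) and 0 higher. ELF5 was at 0 in all 6 libraries with members and PPARG at 0 to 0.921 CPM, whereas GATA3 was at 30.4, 51.3, 42.5 and 31.6 CPM and CDX2 was 2-fold higher than in the GATA4+ cells described below.

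Mesodermal and connective tissue genes were higher instead. Against the EPCAM+ set, 7 of 15 fibrillar matrix genes, 6 of 15 mesenchymal genes, 6 of 13 lateral plate genes and 8 of 13 genes of a list for extraembryonic mesoderm were 2-fold higher in each library, and 0 of each list lower. The lists overlap, since the matrix genes DCN, LUM, POSTN and COL3A1 are on the first and the last. BMP4 and PITX1 are on the lateral plate list and the last, and SNAI2 is on the mesenchymal list and the last. Of these lists' higher genes, NID2 alone was on the last list only. Smooth muscle genes were also higher for 5 of 15 measured (ACTA2, TAGLN, CNN1, TPM2 and TPM4) and 0 lower beside the EPCAM+ set, but for 0 of 15 beside all other kept cells and each of the other 3 sets.

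Against all other kept cells of the same library, 66 of 7874 genes (0.838%) were at least 2-fold higher in each of the 4 libraries and 67 (0.851%) lower. The highest median ratio was that of DCN, decorin, a small proteoglycan of collagen fibrils, at 524, 54.9, 422 and 628 CPM (median log2 ratio 4.08). POSTN, the matrix protein periostin, followed at 256, 70.0, 298 and 511 CPM (3.47), and CST3, the secreted protease inhibitor cystatin C, at 11457, 10728, 10845 and 21114 CPM (3.22). Each was above the other cells of its own library everywhere, but E16-DZ was the lowest library for DCN and POSTN, and CST3 in E18-DZ was near 2 times the other libraries.

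The next were LUM (lumican, 494, 75.1, 204 and 357 CPM), IGFBP7 (a secreted growth factor binding protein, 1017, 331, 589 and 1210 CPM), PITX1 (a homeobox factor of the hindlimb field, 166, 172, 87.0 and 98.7 CPM) and MAB21L2 (a gene of eye and body wall development, 58.9, 40.7, 94.4 and 175 CPM), with median log2 ratios of 3.12, 3.05, 2.74 and 2.72. LUM and IGFBP7 shared the low value in E16-DZ, whereas PITX1 was higher in both E16 libraries than in either E18 library. The main fibrillar collagens were also high, with COL1A1 at 875, 346, 916 and 2640 CPM and COL3A1 at 2054, 1109, 2635 and 4188 CPM. The other genes among the 20 with the highest ratios were CAVIN3, CXCL14, B2M, AQP3, PPP1R1A, KRT14, IFNGR1, APOE, LGALS1, NID2 and SMOC2, with median log2 ratios of 2.10 to 2.52.

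By group, 7 of 13 lateral plate genes were 2-fold higher than in all other cells in each library (among them BMP4, GATA6, PITX1 and MAB21L2) and 0 lower, with a median log2 ratio of 1.33 against -0.09 over all genes. GATA6, a zinc finger factor related to the excluded GATA4, was at 80.9, 72.6, 64.4 and 94.7 CPM, and BMP4, a signal made in ventral and lateral mesoderm, at 110, 172, 121 and 201 CPM. FOXF1, a factor of splanchnic mesoderm, was lower at 16.7, 18.4, 9.18 and 8.64 CPM, and WT1, a factor of the coelomic lining, at 4.91, 4.16, 20.2 and 10.1 CPM. Genes of the somite were low, with 3 of 8 paraxial genes 2-fold lower (MEOX1, PAX1 and PAX3) and 0 higher. Endothelial genes were lower for 7 of 12 and erythroid genes for 5 of 5. The cell cycle lists did not stand apart, with 0 genes of the S phase and mitosis lists 2-fold higher or lower.

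Shares of members with a UMI were also read at a fixed depth, beside PAX6 cells only and not beside the other sets. After thinning to 2000 UMIs, DCN was found in 25.8, 7.20, 27.1 and 45.9% of members, POSTN in 21.1, 8.68, 19.1 and 36.2% and GATA6 in 15.1, 12.8, 11.7 and 16.8%. PAX6 cells had 0.64, 0.85, 0.65 and 0.22% for DCN, 0.64, 0.28, 0.65 and 0.44% for POSTN and 0.64, 0.85, 0.65 and 0.44% for GATA6. Unthinned, DCN was found in 37.4, 11.8, 42.9 and 58.3% of members and in 3.16, 2.52, 2.98 and 1.06% of PAX6 cells. CST3 was more widespread, in 89.7, 81.7, 93.0 and 93.9% of thinned members and in 55.8, 50.1, 48.1 and 42.6% of thinned PAX6 cells.

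**Figure D2:**
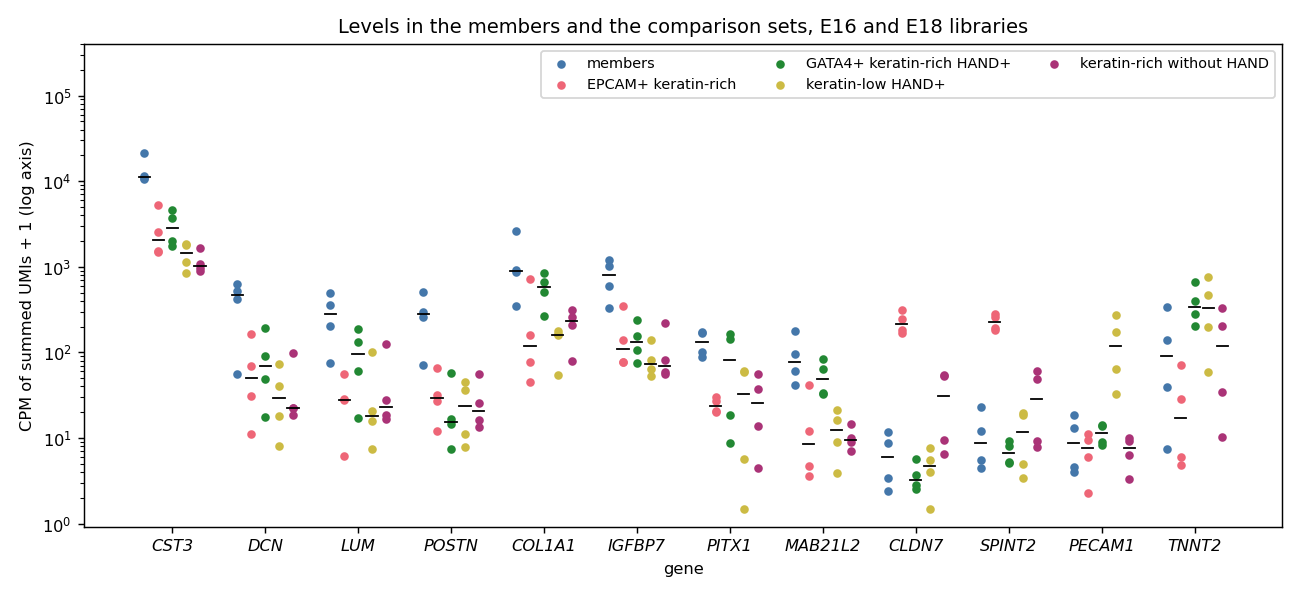
CPM + 1 on a log axis for 12 genes in the members and 4 comparison sets; each point is 1 of the 4 E16 and E18 libraries and each black bar the median of 4. CST3, DCN, LUM, POSTN and IGFBP7 are highest in the members, CLDN7 and SPINT2 in the EPCAM+ set, and PECAM1 in the keratin-low HAND+ set.

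The nearest relatives by rule were 1267 cells over the 8 libraries that met every limit except that GATA4 was at 1 or more UMIs. A single GATA4 UMI thus parts this set from the members, and a count of 0 does not show that GATA4 RNA was absent. The related GATA6 was found in 39.1, 34.8, 36.2 and 45.8% of members without thinning. How much of the split comes from undetected GATA4 was not tested. Only 23 of 7761 genes (0.296%) were at least 2-fold higher in the members of each of the 4 libraries and 3 (0.0387%) lower, fewer than against the other sets. POSTN had the highest median log2 ratio here, 3.37, with 15.5, 6.35, 13.4 and 56.7 CPM in the GATA4+ set. CST3 stood at 1978, 1763, 4550 and 3710 CPM there (2.52), so it was higher in the members of each library. Among HOX genes, the factors that mark position along the body axis, HOXB8, HOXB9 and HOXC8 were 2-fold higher of 23 measured and 0 lower. HOXC8 was at 44.4, 62.8, 118 and 72.8 CPM in members against 8.14, 20.9, 14.5 and 2.33 CPM. The lowest ratios were those of SFRP5, a secreted inhibitor of Wnt signals (36.0 and 37.5 CPM in the E16 members, median log2 ratio -2.10), and of the heart muscle genes TNNT2 (-2.09), MYL4 (-2.06) and MYH7 (-1.88), and of the membrane protein TM4SF1 (-2.08), which lay between TNNT2 and MYL4. The ratios of the heart muscle genes were not alike over the libraries: in E16-ZZ, MYL4 was at 115 CPM in members and 110 in the set, and MYH7 at 91.9 and 87.3 CPM. Of 15 mesenchymal and 14 lateral plate genes, 0 were 2-fold higher or lower (median log2 ratios 0.20 and 0.18), while 3 of 14 genes of the extraembryonic mesoderm list (0.90) and 3 of 15 fibrillar matrix genes (0.44) were higher, DCN, LUM and POSTN in both.

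Keratin-low HAND+ cells were 2187 barcodes over the 8 libraries with KRT8 under 10 UMIs, and had higher levels of many endothelial and erythroid genes. A single HAND UMI, which free RNA could supply, was enough to enter this set. How many of its cells entered that way was not tested. Of 7879 genes, 78 (0.99%) were 2-fold higher in the members of each library and 56 (0.711%) lower, and the lower ones held 9 of 13 endothelial genes and 4 of 5 erythroid genes. PECAM1, an endothelial adhesion molecule, was at 17.4, 11.9, 3.55 and 2.997 CPM in members (median log2 ratio -3.19). Keratin-rich cells without a HAND UMI, 2789 barcodes over the 8 libraries, had lower levels of many matrix genes. Of 15 fibrillar matrix genes, 8 were 2-fold higher in the members and 0 lower. Over all genes 55 of 7772 genes (0.708%) were higher in the members and 16 (0.206%) lower. DCN stood at 98.4, 17.4, 21.4 and 21.6 CPM in that set, and the somite genes MEOX1 and PAX3 were among the 16 that were lower in members.

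The members were not 1 uniform kind of cell. Leiden clustering without the rule genes and KRT18 split them into 12 clusters, described here by their leading genes with no test. Of these, 4 were led by genes of another lineage and held 414 members: cluster 11 was cardiac muscle-like (246 members, led by MYH7, TNNT2 and ACTC1), cluster 2 endothelium-like (80, led by CD93 and PECAM1), cluster 10 surface ectoderm or amnion-like (79, led by CST6, TAC3 and WNT6) and cluster 5 erythroid-like (9, led by HBZ and HBE1). Scrublet marked 26.4, 68.8, 18.99 and 55.6% of them as doublets, above the 2.84 to 8.86% of the other 8. Their part in the members' values shows in single genes: cluster 11 gave 87.0% of the members' TNNT2 UMIs and cluster 5 gave 67.9% of their HBE1 UMIs.

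Cluster 3, with 771 members, came only from E16, where it made up 30.0% of ZZ and 25.5% of DZ members. It was led by HOXA13 and HOXA10, factors of the hindmost body, and held 76.4% of the members' HOXA13 UMIs and 64.4% of those of HOXA10. HAND2 was widely detected there, in 72.0% of cells. Cluster 4, with 397 members, was also mostly of E16 (6.68 and 19.2% of members, against 1.53 and 0.28% at E18) and was led by FABP7, CDX4, HOXC10, ETV5 and LEF1, with the tail bud factors CDX2 and CDX4 and the signal WNT5A among its leading genes. The genes that lead cluster 4 were not confined to E16: CDX4 was at 9.92, 26.2, 9.42 and 0.353 CPM and CDX2 at 14.6, 17.2, 11.3 and 8.82 CPM over all members of the 4 libraries.

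The matrix genes were concentrated in clusters 6 and 9. Cluster 6 held 436 members, 18.4, 2.72, 8.51 and 11.8% of the 4 libraries in the order above, was led by ITIH5, COLEC10 and POSTN, and gave 57.5, 51.6 and 49.95% of the POSTN, DCN and LUM UMIs. HAND2 was found in 15.1% of its cells and HAND1 in 98.9%. Cluster 9 held 504 members, 6.60, 6.22, 9.05 and 33.5% of the libraries, and was led by AQP3, FAM20A, TMEM92 and SOD3. It gave 98.4% of the UMIs of AQP3 (a water and glycerol channel), 55.6% of those of COL1A1, 52.0% of those of APOE and 49.97% of those of CST3. The clusters were made from the expression of these same genes, and the part of cluster shares in the differences between libraries was not tested.

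Cluster 12 was the largest, with 914 members, and made up 5.80 and 6.54% of E16 members and 48.2 and 36.3% of E18 members. It was led by ALX1, SCUBE1, NR2F1 and SLIT1, and its leading genes also held PRRX1, a factor of limb and body wall mesenchyme, and GPC3, a proteoglycan of the cell surface. Of the 37 E21 members, 14 of 15 and 22 of 22 fell in it. Cluster 8, with 403 members, was led by HLX, CXCL12 and SPP1 and made up 22.8% of E18-ZZ members against 3.69 to 6.93% elsewhere at E16 and E18. Cluster 1, with 322 members, was led by MYL1 and CST3 and had KRT8 at a median of 70 UMIs. Cluster 7, with 317 members, stood apart in quality, with a median of 0.25% mitochondrial UMIs and 3041 UMIs per cell.

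**Figure D3:**
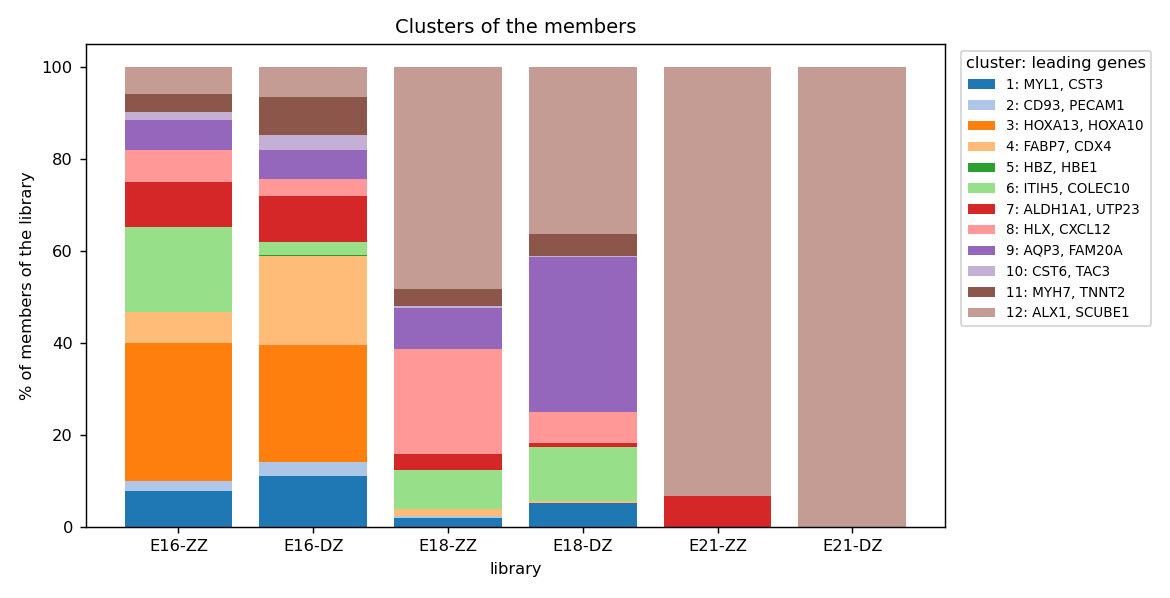
Members of each library split by cluster, as a percentage of that library's members; each colour is 1 of 12 clusters, listed with its first 2 leading genes that have a symbol. Cluster 3 is found only at E16, cluster 12 makes up most E21 members, and cluster 9 is largest in E18-DZ.

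Change with stage was tested in the members' summed counts of the 2 E18 libraries against the 2 E16 libraries, with breed as a covariate, by edgeR's quasi-likelihood test with Benjamini-Hochberg adjustment over 11629 genes. C1QTNF3, a secreted protein of the C1q and TNF family, was called higher at E18 (0.0086% of genes tested) and 0 genes were called lower, against 725 and 920 at an unadjusted p under 0.05 and 27 and 46 by DESeq2. It was at 4.91 and 1.29 CPM at E16 and 96.7 and 26.1 CPM at E18 (log2 4.14, SE 0.22, adjusted p 0.0314). The groups did not overlap, and ZZ lay above DZ at both stages. Its call was lost without the breed covariate and without Scrublet-marked barcodes. It was also lost without any 1 library, but those fits dropped the breed covariate too and left 1 stage a lone library. The effect of the library and that of the covariate cannot be told apart there. Cluster 12 gave 58.2% of the members' C1QTNF3 UMIs.

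Some genes lay apart by stage. Both E18 libraries were at least 2-fold higher than both E16 libraries for 28 genes (0.241%), C1QTNF3 among them, and 2-fold lower for 18 (0.155%). The following did not pass the test and were picked after their values were seen. HOXA13 was at 35.0 and 35.4 CPM at E16 and at 1.96 and 0 CPM at E18, and HOXA10 at 59.2 and 74.1 against 7.34 and 0 CPM (adjusted p 0.135 and 0.178). CA3, a carbonic anhydrase, was at 27.0 and 47.4 against 3.92 and 3.35 CPM, and the chemokine CXCL14 at 1817 and 1659 against 716 and 798 CPM. Higher at E18 were ACTG2, a smooth muscle actin, at 4.91 and 3.33 against 29.0 and 31.2 CPM, ALX1, a homeobox factor of mesenchyme, at 4.20 and 3.14 against 24.1 and 18.3 CPM, and TNC, the matrix protein tenascin C, at 66.7 and 81.5 against 222 and 235 CPM. Their adjusted p in the edgeR test was 0.127 in each case. In each of these genes the 2 libraries of a stage lay closer to each other than to the other stage, beside the different shares of clusters 3 and 12 at the stages, and their part in these differences was not tested.

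Breed was tested in the same 4 libraries with stage as a block. By edgeR 0 of 11629 genes (0%) were called in either direction, against 139 higher and 125 lower in DZ at an unadjusted p under 0.05, and DESeq2 called 0 higher and 1 lower. The breed contrast of single genes rested on 1 library of each breed per stage, and the order of the breeds turned between stages for DCN: DCN was lower in DZ than ZZ at E16 (54.9 against 524 CPM) and higher at E18 (628 against 422 CPM). C1QTNF3 had the smallest unadjusted p and was lower in DZ at both stages.

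Whether the members differed between stages by more or less than each comparison set was tested as the interaction of stage and cell set, with the library as a block. Each value below is the log2 change from E16 to E18 in the members minus that in the comparison set, from edgeR's quasi-likelihood test with adjusted p, so a positive value can come from a higher E18 level in the members or a lower one in the set. The tests share the members' libraries.

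The GATA4+ set had the most calls in this fit, with 196 of 11459 genes (1.71%) higher and 305 (2.66%) lower. It held 171 and 124 cells in E18-ZZ and E18-DZ, so its low values at E18 rest on few UMIs. PITX1 was at 166 and 172 CPM at E16 and 87.0 and 98.7 CPM at E18 in the members, and at 143.1 and 161, then 17.7 and 7.77 CPM in the GATA4+ set (log2 2.65, SE 0.25, adjusted p 5.72e-05). APOE, a lipoprotein component, was at 2281 and 1711 CPM, then 926 and 2071 CPM in members, and at 3619 and 2264 CPM, then 319 and 252 CPM in the set (log2 2.84, SE 0.30, adjusted p 0.000105). ANXA1, an annexin, was higher likewise (log2 3.38, SE 0.28, adjusted p 1.52e-05). In all 3 the set was lower at E18 than at E16 in each breed. PITX1 was lower at E18 in the members too, by less. APOE and ANXA1 were lower at E18 in ZZ members but higher in DZ members, where ANXA1 was at 23.3, then 57.0 CPM. All 3 genes were called under every alternative run.

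Of 30 HOX genes tested against the GATA4+ set, 6 were higher (HOXA9, HOXA10, HOXA13, HOXC8, HOXC9 and HOXD8) and 6 lower (among them HOXB2, HOXB5, HOXC4 and HOXC5). HOX numbers follow position, the low ones being used towards the head and the high ones towards the tail. HOXD8 was at 22.3 and 31.5, then 27.3 and 42.3 CPM in members, and at 12.9 and 20.5, then 2.15 and 3.11 CPM in the set (log2 3.06, SE 0.38, adjusted p 0.000357). HOXC4 was at 17.1 and 17.0, then 39.2 and 39.8 CPM in members, and at 3.70 and 4.85, then 41.4 and 41.9 CPM in the set (log2 -2.03, SE 0.26, adjusted p 0.000526). In both genes the stages lay further apart in the set than in the members. HOXC9 (log2 2.45), HOXD8, HOXB2 (-2.03) and HOXC4 were called under every alternative run. HOXA9 (3.04) was not called without E18-ZZ, and HOXA13 was not called by DESeq2, without Scrublet-marked barcodes, without the other-lineage clusters, without E16-ZZ or without E18-ZZ.

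**Figure D4:**
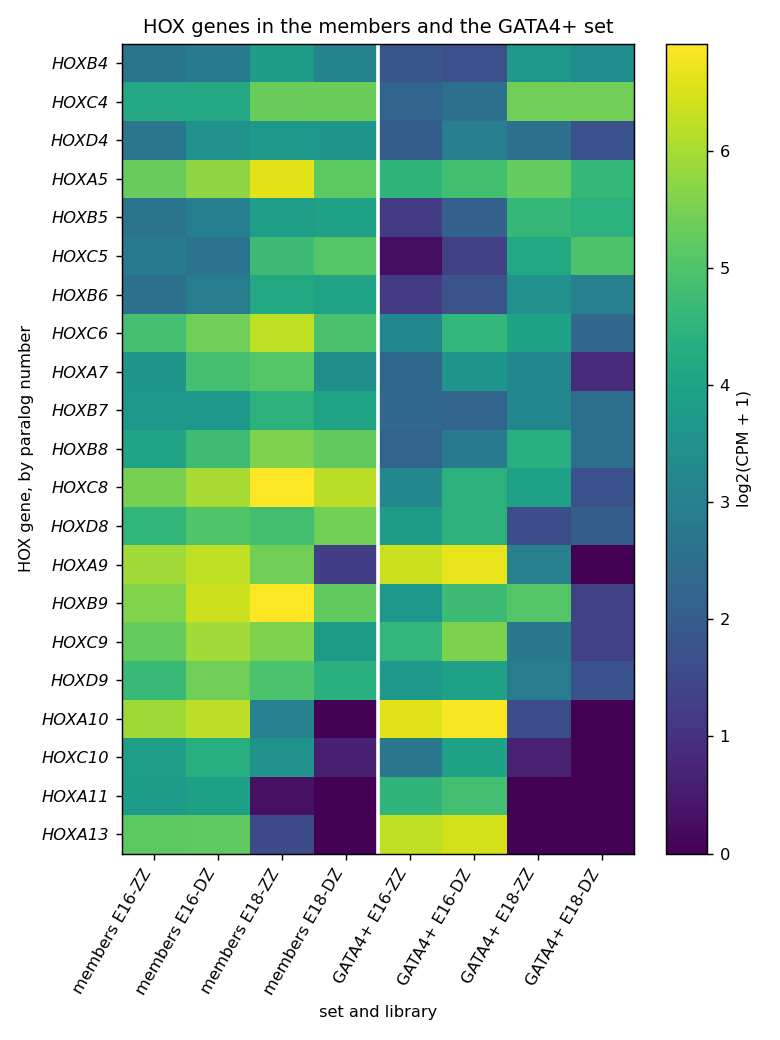
HOX genes from paralog group 4 upward (with a median of at least 5 CPM in either set over the 4 libraries) in the members and the GATA4+ set, by library, as log2(CPM + 1), ordered by paralog number. HOXA9, HOXA10, HOXA11 and HOXA13 are higher at E16 than at E18 in both sets, and HOXC8, HOXD8 and HOXC9 stay higher in the members than in the GATA4+ set at E18.

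Of 16 fibrillar matrix genes, 4 were higher (COL1A1, COL3A1, COL5A1 and VCAN) and TNC lower (log2 -1.27, adjusted p 0.0025). Of 12 annexin and S100 genes, 4 were higher and 1 lower. Of 23 BMP pathway genes, 0 were higher and 4 lower, BMP4 (log2 -1.14, adjusted p 0.00686), MSX1 and the BMP-responsive inhibitors ID2 and ID3. BMP4 was at 110 and 172, then 121 and 201 CPM in members, and at 49.2 and 55.6, then 129 and 135 CPM in the set. Of 8 cardiac genes 5 were lower, TNNT2 by -3.24 (SE 0.33, adjusted p 8.59e-05), and of 13 endothelial genes 6 were lower and 0 higher. TNNT2 was at 139 and 341, then 38.3 and 6.35 CPM in members, and at 205 and 662, then 401 and 278 CPM in the set. In the set it was thus higher at E18 in ZZ and lower in DZ. A TNNT2 UMI was found in 14.7, 18.9, 4.69 and 2.63% of members in E16-ZZ, E16-DZ, E18-ZZ and E18-DZ, and in 3.8, 15.1, 4.89 and 1.48% of PAX6 cells. The part of free RNA in these shares was not tested. The summed level of the 8 cardiac genes in members went from 453 and 1118 CPM at E16 to 177 and 85.9 CPM at E18, and that of the 13 endothelial genes from 267 and 290.0 to 147 and 194 CPM. The 4 clusters of other lineages were then left out of the members only, and the GATA4+ set kept all its cells. Clusters 11 and 2 were themselves led by cardiac and endothelial genes, so this fit cannot part the effect of their removal from a difference between the sets. In it the cardiac genes MYL4, MYBPC3 and TNNC1 and all 6 endothelial genes were no longer called, while TNNT2 and MYH7 still were. Over all genes 78 were higher and 111 lower in that fit. On all members, DESeq2 called 27 higher and 59 lower.

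Against keratin-rich cells without HAND, 38 of 11637 genes (0.327%) were higher and 11 (0.0945%) lower. Of 16 fibrillar matrix genes tested, 3 were higher (DCN, LUM and POSTN) and 0 lower. POSTN was at 256 and 70.0, then 298 and 511 CPM in members, and at 55.2 and 15.4, then 12.5 and 24.4 CPM in the set (log2 2.33, SE 0.15, adjusted p 5.13e-05). DCN (2.47, SE 0.25, adjusted p 0.00188) and LUM (1.73, SE 0.14, adjusted p 0.000302) were higher likewise, as was SOD3, an extracellular antioxidant enzyme (1.98, adjusted p 0.0219). These 4 were called under every alternative run. AQP3 (4.42, SE 0.80, adjusted p 0.0426) rested on E18-DZ and was not called by DESeq2, without Scrublet-marked barcodes, without E16-DZ or without E18-DZ.

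Against keratin-low HAND+ cells, 86 of 11445 genes (0.751%) were higher and 30 (0.262%) lower. Free RNA could place a cell in this set by 1 HAND UMI, and its part in these calls was not tested. STEAP1, a membrane protein, was at 113 and 53.4, then 70.0 and 54.5 CPM in members, and at 295 and 142.9, then 23.1 and 14.9 CPM in the set (log2 3.15, SE 0.18, adjusted p 1.81e-05). PITX1 (3.495, adjusted p 0.00413) and APOE (3.17, adjusted p 0.0116) were higher here too, both lost by DESeq2. Of 12 annexin and S100 genes, 4 were higher (ANXA2, ANXA5, S100A6 and S100A10) and 0 lower. On the lower side, DLX5, a homeobox factor of branchial arch and limb, was at 1.13 and 4.43, then 2.33 and 5.11 CPM in members, and at 0.409 and 0.462, then 22.4 and 60.1 CPM in the set (log2 -6.13, SE 0.58, adjusted p 0.00144). The set held 295 and 720 cells in E16-ZZ and E16-DZ, so its DLX5 values at E16 rest on few UMIs. PRRX1 was at 32.3 and 50.1, then 79.8 and 82.5 CPM in members, and at 6.54 and 12.5, then 82.2 and 78.3 CPM in the set (log2 -2.01, adjusted p 0.00259). ID1, ID2 and ID3 were lower, the 3 called genes among 24 of the BMP pathway.

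Against the EPCAM+ set, 15 of 12445 genes (0.121%) were higher and 12 (0.0964%) lower. COL8A1, a short-chain collagen, was at 6.34 and 3.05, then 8.94 and 9.35 CPM in members, and at 30.0 and 18.7, then 1.86 and 1.28 CPM in the set (log2 4.91, SE 0.51, adjusted p 0.00186). The EPCAM+ set held 152 and 69 cells in E18-ZZ and E18-DZ, so its low values there rest on few UMIs. TNC was at 66.7 and 81.5, then 222 and 235 CPM in members, and at 59.3 and 99.9, then 79.9 and 114 CPM in the set (log2 1.43, SE 0.22, adjusted p 0.0128). CXCL12, a chemokine, was also higher (1.53, adjusted p 0.0301). CST3 was lower by -0.74 (SE 0.09, adjusted p 0.00316), with 1542 and 1486, then 2567 and 5246 CPM in the EPCAM+ set. All 4 were called under every alternative run, whereas ALDH1A1, HOXD1 and TTR were not called without E18-ZZ.

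**Figure D5:**
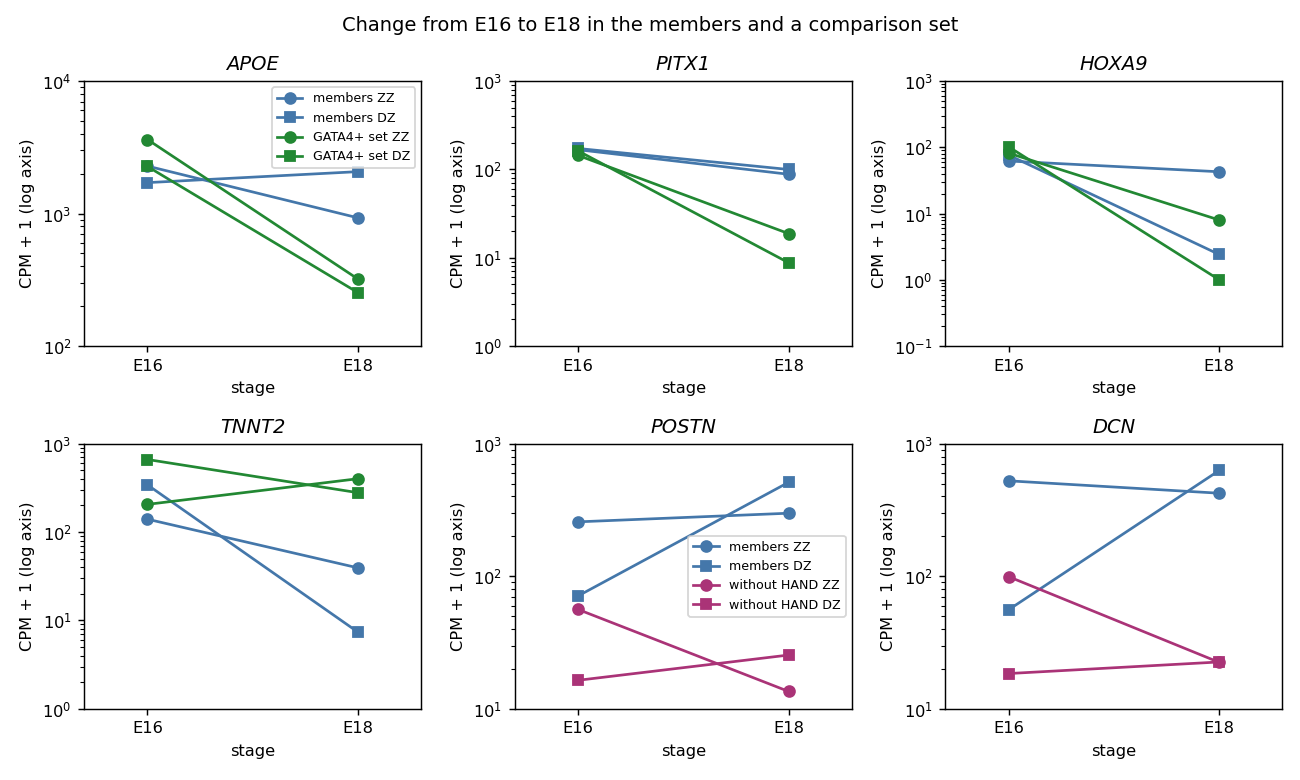
CPM + 1 on log axes at E16 and E18 in the members (blue) and the comparison set of each test (green, GATA4+ set; purple, keratin-rich cells without HAND); circles are ZZ and squares DZ libraries, joined within a breed. The lines of APOE, PITX1 and HOXA9 slope down in the GATA4+ set. In the members they slope down less, apart from APOE in DZ, which slopes up. TNNT2 slopes down in the members, while in the GATA4+ set it slopes up in ZZ and down in DZ. POSTN and DCN are higher in the members than in the cells without HAND at E18.

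The 37 E21 members were too few for a test, since 1 E21 library held at least 20 of them. Summed, they had KRT8 at 2666 and 2495 CPM and HAND1 at 136 and 142 CPM in ZZ and DZ, below every E16 and E18 library. TBX3, a T-box factor of limb and heart, stood at 232 and 179 CPM, above the 26.9 to 49.7 CPM of the earlier members, and WT1 at 79.8 and 31.6 CPM, above 4.16 to 20.2 CPM. At 15 and 22 cells, with 125264 and 189975 UMIs in all, these levels rest on few UMIs. A single HAND UMI was all that qualified 66.7% of the E21-ZZ and 59.1% of the E21-DZ members. Free RNA could supply such a UMI, and its part was not tested.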

How the data were processed

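Single-cell libraries were made by the study with the 10x Genomics 3' v3 chemistry and aligned by the authors to Sscrofa11.1 with Ensembl release 98 genes. Cell Ranger was version 3.1.0 (E16) or 3.0.2 (E18, E21, E28), as read from the headers of the deposited matrices. The authors' deposited matrices hold whole UMI counts per gene and barcode, not normalized, for 21301 genes, of which 680 identifiers were named from RefSeq. The study's methods name a doublet filter of their own, and the deposited barcodes were used here with none removed. The filters removed 194 barcodes for genes, 279 for UMIs and 7967 for the mitochondrial share.

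The members and gene lists were chosen with earlier results of these data known. Counts were summed over the members of each library, where it held at least 20, and tested with edgeR 4.0.16 (TMM, filterByExpr, quasi-likelihood test, Benjamini-Hochberg at 0.05), with DESeq2 1.42.0 (R 4.3.3) as an alternative; the rule genes and KRT18 were left out of the calls. Shares were compared by an exact permutation test (scipy 1.17.1). Members were clustered with scanpy 1.11.5 (1000 variable genes, 15 components, 15 neighbours, resolution 0.5). Descriptive ratios used CPM + 5 for genes with a mean of at least 10 CPM. The edgeR stage test was also run on simulated counts with a common dispersion for all genes, and its outcome is not given here. The breed and interaction tests were not simulated. Each group was 1 library, so p-values measure the spread between libraries across breeds, which may be technical. In tests, the genes named were the 10 called with the largest fold in each direction at 20 CPM or more and called members of the lists that a sentence counts. Against other cells they were the 20 highest median ratios, and the 10 highest and lowest against each set. UMIs count molecules and not reads. A few genes are not reported here.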

Additional observations from a re-analysis of the deposited data

Results flagged for a closer look

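Among 27 groups of libraries checked, 3 held a library whose distance from the rest passed Dixon's 95% value, which chance gives in about 1 of 20 groups. E16-ZZ lost 39.16% of its barcodes to the mitochondrial limit, far above the other 7 libraries. E18-DZ had CST3 at 21113.689 CPM in members, against 10728 to 11457 CPM in the other 3 early libraries, and AQP3 at 201.884 CPM, against 8.39 to 34.3 CPM. Cluster 9, which held 49.97% of the CST3 UMIs and 98.4% of the AQP3 UMIs, made up 33.5% of E18-DZ members, and its part in these levels was not tested beyond these shares.

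The change from E16 to E18 differed between the members and each of the 4 comparison sets by the interaction test. Against the EPCAM+ set 15 genes were higher and 12 lower, against the GATA4+ set 196 and 305, against keratin-low HAND+ cells 86 and 30, and against keratin-rich cells without HAND 38 and 11.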

How the results depend on the processing

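The late minus early share kept its direction under every alternative run. It was -12.4 points without the E28 and -7.85 without the E16 libraries, where the design could not reach 0.05, and -14.4 to -10.1 with 1 library left out. With a mitochondrial limit of 5%, without Scrublet-marked barcodes, at other KRT8 or UMI limits and after thinning, it was -15.2 to -10.5.

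The stage fits with 1 library left out also dropped the breed covariate, and the breed fits the stage block. In their counts below, the effect of the library and that of the dropped term cannot be told apart. Genes called higher and lower at E18 (1 and 0) numbered 27 and 46 by DESeq2, 281 and 402 with no filter on low counts, and 14 and 29 at the 5% limit. Without the breed covariate or without Scrublet-marked barcodes 0 were higher. With 1 library left out they ranged from 0 to 34 higher and 3 to 60 lower, both highest without E16-ZZ. Breed calls (0 and 0) were 0 and 1 by DESeq2, 15 and 8 with no filter, and 0 to 28 and 0 to 19 with 1 library left out, highest without E18-DZ and then without E16-DZ (10 and 9).

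Interaction calls moved likewise. By DESeq2 they were 27 and 59 (GATA4+ set), 42 and 15 (keratin-low) and 20 and 1 (without HAND). With no filter they were 100 and 95 (EPCAM+), 431 and 468, 349 and 157, and 225 and 89. Without Scrublet-marked barcodes they were 28 and 34 (EPCAM+), 25 and 5 (without HAND), and 16 lower for keratin-low. With the clusters of other lineages left out of the members only, they were 78 and 111 (GATA4+). They were then 148 higher (keratin-low) and 63 higher (without HAND). With 1 library left out they ranged from 31 to 79 higher and 21 to 99 lower (EPCAM+), 56 to 533 and 115 to 450 (GATA4+), 93 to 374 and 31 to 141 (keratin-low), and 41 to 268 and 14 to 93 (without HAND). For the last 3 sets both counts were highest without E18-ZZ. Without E16-ZZ the keratin-low set had more calls (161 and 39) than the GATA4+ set (56 and 115).

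The sign turned for CST6 against the EPCAM+ set (0.89) and TNNI1 against cells without HAND (0.26), both without those clusters, and for AHSP against the GATA4+ set without E18-ZZ (5.36, and -3.96 without E18-DZ, the ends of its range with 1 library left out). CST6 led cluster 10, at 714 CPM against 2.16 CPM in the other members. TNNI1 was among the leading genes of cluster 11, at 509 against 7.36 CPM. AHSP in the GATA4+ set was at 16.1 CPM in E18-ZZ and 0 CPM in E18-DZ. The part of these levels in the turned signs was not tested. Leaving out the clusters of other lineages, and leaving out libraries in the interaction tests, were chosen after seeing the data. Leaving out members with 3 or more UMIs of other lineages left 4 members in E18-ZZ and could not be fitted, and the late against early gene test could not be made. Replicates could not be paired across groups because the labels give no replicate numbers and each group was 1 library. In the interaction tests the members and the comparison set were paired by library. The breed, stage and library terms of the tests are those of the design. With 1 library left out, the lone library of a stage is assumed to vary like the others.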
